A study of Rattus norvegicus with 52 samples.

Results

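The response of mammary basal cells to 17β-estradiol (E2) was examined in 6 RNA-seq libraries, which are the basal libraries of the E2 experiment among the 52 samples of the series. The members were taken by their labels, as all libraries labelled basal with an E2 or a control treatment. Of these, 3 were E2-treated (2 ACI, 1 BN) and 3 were controls (2 ACI, 1 BN), ACI and BN being inbred rat strains. ACI rats develop mammary tumors under prolonged E2, and BN rats are resistant. The rats were purchased females of both strains, without an engineered allele. By the methods of the study, implants that were empty (control) or held E2 were placed at 9 weeks of age and released E2 for 3 weeks. Each basal library shares its title with 1 luminal library, and these 6 luminal libraries were used for comparison. The titles of BN libraries carry a pair of numbers and those of ACI libraries a single one. Whether the BN libraries hold pooled animals is not given in the sources used here.

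Basal, or myoepithelial, cells form the outer layer of mammary ducts and alveoli, rest on the basement membrane, and contract to eject milk under oxytocin. Estrogen acts first on luminal cells that carry the estrogen receptor, which then signal to their neighbours, and it also raises prolactin from the pituitary. Milk proteins are made by secretory luminal cells, in which prolactin activates the transcription factor Stat5. The basal gate that the study gives for its other rats (Cd24+ Cd29 high, with stains for the endothelial Cd31 and the leukocyte Cd45) can also hold other cells rich in integrin β1, which is Cd29, and the gate of the E2 experiment is not given apart from it.

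Between 20440276 and 23331773 reads per basal library were counted on genes. Sequencing depth was therefore similar, but the libraries differed widely, with a common biological coefficient of variation of 1.29 in the fit of all 6. ACI E2 library 1 stood apart. It had counts for 7716 genes against 10131 to 12065 in the other 5, and 856 genes were at 0 there while reaching 5 counts scaled to library size (CPM) in each of the other 5. The same number was 112 for the BN E2 library and at most 12 for any control or ACI E2 library 2. Its median Spearman correlation with the other libraries was 0.722, against 0.755 to 0.849 for the others. The BN control library had the largest share of reads that were not counted on genes (70.94%, against 57.09% to 62.25% in the other 5). Counts of list members are therefore also given without ACI E2 library 1, and are then read beside the 11.3% of all genes tested for which both remaining E2 libraries lay above all controls and the 12.9% for which both lay below.

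The basal label was checked against marker genes. Over the 12 libraries, the summed CPM of 22 basal identity genes was 8326 to 18330 in basal and 1611 to 3686 in luminal libraries. For 25 contractile genes, it was 11310 to 30490 in basal and 664.9 to 10140 in luminal libraries. The 22 luminal markers ran the other way, with 414.4 to 4464 in basal and 11450 to 33640 in luminal libraries. Within the basal libraries (CPM normalized over these 6 from here on, unless said otherwise), *Krt14*, a keratin of basal cells, was at 2492 and 734 in the ACI controls, 365 in the BN control, 54.8 and 4365 in the ACI E2 libraries and 2929 in the BN E2 library. *Tp63*, the transcription factor of basal epithelium, was at 0 in ACI E2 library 1 and between 16.2 and 163 in the other 5. *Myh11*, the smooth muscle myosin heavy chain, was at 1470.4 in that library and at 2885 to 4081 in the others. The contractile genes also had their lowest sum there (11400, against 16360 to 30740 in the other 5), with the smooth muscle actin *Actg2* at 17.5 against 174 to 998 and the calponin *Cnn1* at 85.1 against 391 to 1501. ACI E2 library 1 was thus the lowest of the 6 in basal keratin *Krt14*, in *Tp63* and in the sum of contractile genes. Not every contractile gene was lowest there. On the scale of 12 libraries, *Synpo2* was highest in that library (348 CPM, against 78.2 to 327 in the other basal libraries). *Myl9* was at 1969 CPM there, against 1476 to 4718 CPM.

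**Figure D1:**
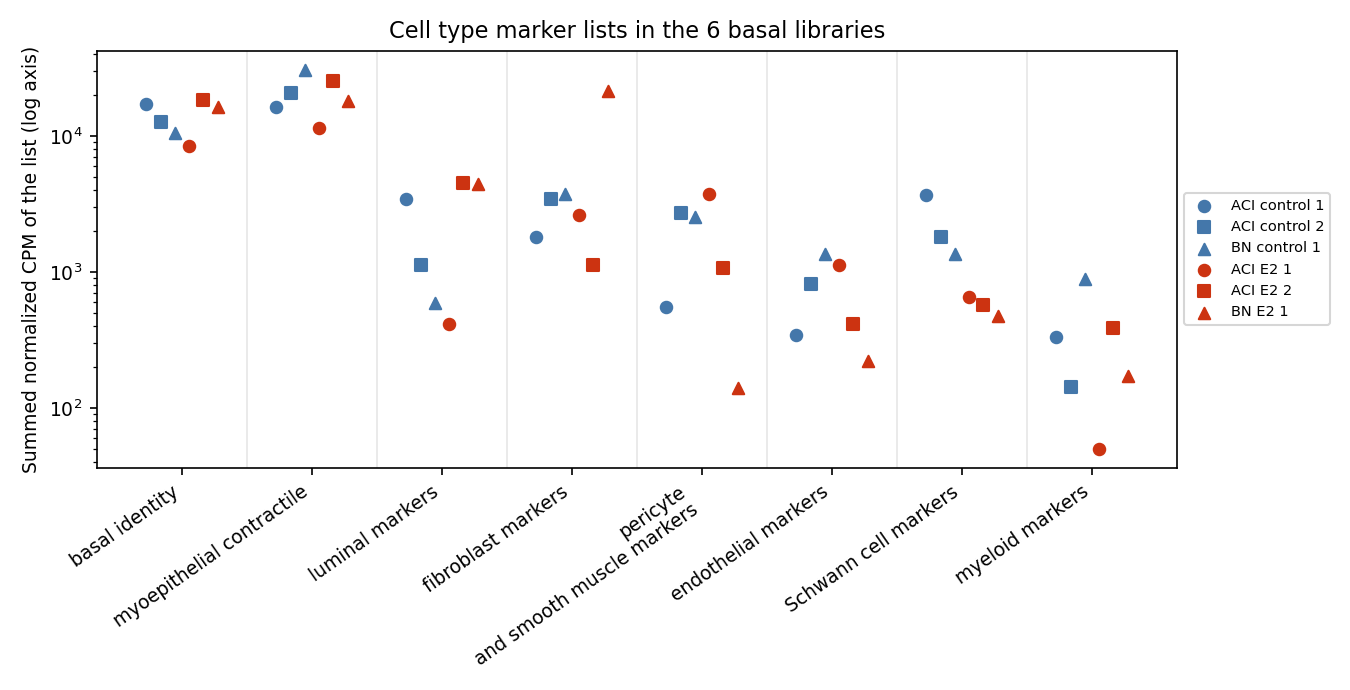
Summed normalized CPM (log axis) of 8 lists of cell type markers, with 1 point for each of the 6 basal libraries (blue for control, red for E2; circles and squares are ACI libraries 1 and 2, triangles BN). The 3 E2 libraries lie below the 3 controls for Schwann cell markers (478.6 to 660.2 against 1366 to 3692), while in the other lists the treatments overlap, and the BN E2 library is highest for fibroblast markers (21570) and lowest for pericyte markers (141.3).

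Other marker lists also varied from library to library. The 13 fibroblast markers summed to 21570 CPM in the BN E2 library and to 1134 to 3774 in the other 5. The 10 pericyte and smooth muscle markers summed to 141.3 CPM in the BN E2 library, where *Rgs5*, a defining gene of pericytes, was at 0.0469 CPM, and to 556.5 to 3776 in the others, the highest sum being that of ACI E2 library 1. *Pecam1*, which encodes Cd31, was at 0 to 4.69 CPM, and *Ptprc*, which encodes Cd45, at 0 to 7.20 CPM, the last in the BN control library. The marker lists of endothelial and myeloid cells held more than these genes. The 14 endothelial markers summed to 223.9 to 1359 CPM and the 16 myeloid markers to 50.56 to 893.2 CPM, both highest in the BN control library. The part of these cells in the differences below was not tested, except where a value is given. In bulk samples, fewer cells of a type and less RNA per cell cannot be told apart.

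With strain as a term, edgeR's quasi-likelihood test called 0 of 11288 genes (0%) between E2 and control at an adjusted p under 0.05. At an unadjusted p under 0.05 there were 181 genes (1.6%), of which 44 (0.39%) were higher and 137 (1.21%) lower with E2. That excess of lower genes was absent when 10 counts were required in every library (113 higher and 111 lower). This filter also removes genes at or near 0 with E2. The excess was small without ACI control library 1 (69 higher and 80 lower). It remained with RLE size factors (51 and 127), by voom (222 and 344) and without ACI E2 library 1 (140 and 259). DESeq2's Wald test called 74 genes at an adjusted p under 0.05, 20 higher (0.177%) and 54 lower (0.478%). All 3 E2 libraries lay above all 3 controls for 358 genes (3.17%) and below them for 849 (7.52%), and an exact permutation test of 3 libraries against 3 cannot go below a two-sided p of 0.1. The median log2 fold change over all genes was -0.18, and 40.4% of genes had a value above 0. The differences below are therefore values that did not pass edgeR's test after adjustment, and the lowest adjusted p among the genes named was 0.630, for *Cpxm1*. The others named had adjusted p-values of 0.9998 from edgeR's quasi-likelihood test.

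Milk protein genes were higher in the E2 libraries. *Csn2*, which encodes β-casein, was at 5.07 and 17.7 CPM in the ACI controls and 12.7 in the BN control, and at 301 and 897 CPM in the ACI E2 libraries and 359.8 in the BN E2 library. The groups did not overlap, the lowest E2 library lying far above the highest control. Its log2 fold change was 5.42 (standard error 0.79), and the DESeq2 adjusted p was 7.3e-10. *Csn1s1*, which encodes αS1-casein, was at 32.5, 14.7 and 7.20 CPM in the controls (ACI 1, ACI 2 and BN, the order used throughout) and at 119, 288 and 768 CPM with E2. Its log2 fold change was 4.18 (standard error 1.02, DESeq2 adjusted p = 0.00224). *Csn1s2a*, an αS2-like casein gene, was at 0.0818, 0 and 0 CPM in the controls and 39.3, 48.2 and 41.4 CPM with E2. *Csn1s2b*, its paralog, had no count in any control and was at 16.8, 8.07 and 7.69 CPM with E2, at least 78.8-fold higher when 3 counts per library are taken as the floor of the controls.

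The milk genes beside the α- and β-caseins were less uniform. *Csn3*, encoding κ-casein, which stabilizes casein micelles, was at 61.6, 13.1 and 9.36 CPM in controls and 65.5, 166 and 619 CPM with E2. Here the groups only just separated, since ACI control 1 and ACI E2 library 1 were close, and the log2 fold change was 2.85 (standard error 1.25). *Glycam1*, a mucin-like milk glycoprotein, was at 0.450, 0 and 1.52 CPM in controls and 106, 266 and 24.8 CPM with E2. *Wap*, the whey acidic protein, was at 0, 0 and 0.736 CPM in controls and 7.83, 15.8 and 9.04 CPM with E2. *Xdh*, xanthine dehydrogenase of the milk fat globule membrane, was at 54.6, 4.12 and 11.6 CPM in controls and 144, 68.8 and 127 CPM with E2, with a log2 fold change of 2.38 (standard error 1.04). *Lalba*, the α-lactalbumin that lactose synthesis needs, overlapped, with 6.42, 2.06 and 2.58 CPM in controls and 0.0433, 11.4 and 205 CPM with E2. *Mfge8*, a milk fat globule protein that other cells make as well, was at 1287 to 1712 CPM in controls and 1007 to 2065 CPM with E2, without a separation of the treatments.

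Of the 19 milk protein genes listed, 15 passed the filter on low counts, and the other 4 (*Cel*, *Folr1*, *Ltf* and *Pigr*) stayed at or below 8.15 CPM in every library. All 3 E2 libraries lay above all 3 controls for 9 genes and below them for 0, beside 3.17% and 7.52% of all genes tested. By unadjusted edgeR p under 0.05, 6 were higher and 0 lower, beside 0.39% and 1.21% of all genes. DESeq2 after adjustment also called 6 higher and 0 lower, beside 0.177% and 0.478%. The filter bears on these counts, because 4 of the 15 (*Csn1s2b*, *Lpo*, *Muc15* and *Slc34a2*) had no count in any control and passed through E2 libraries alone. Among the 8 milk genes with counts in all controls, 4 (*Csn2*, *Csn1s1*, *Csn3* and *Xdh*) had all E2 libraries above. Without ACI E2 library 1, both remaining E2 libraries were above all controls for 13 of the 15, beside 11.3% of all genes tested. These 13 include the 4 genes without a count in any control, which could not lie below, so the filter bears on this count too.

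**Figure D2:**
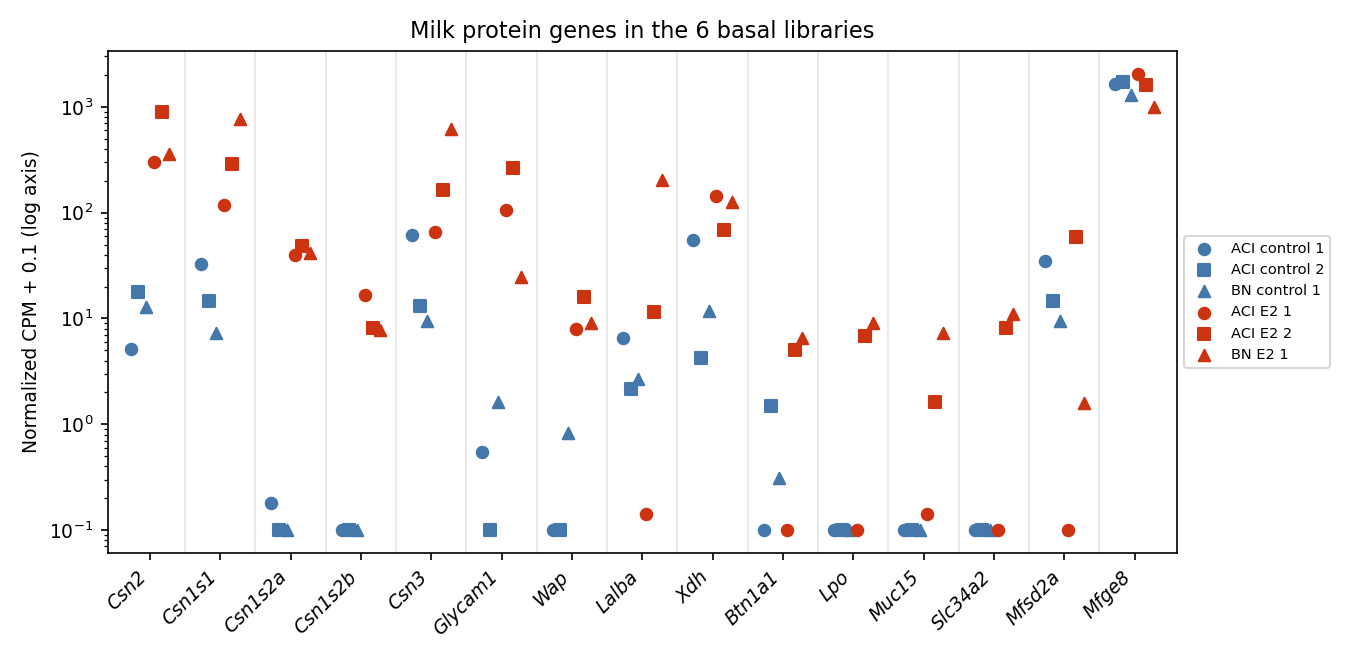
Normalized CPM plus 0.1 (log axis) of the 15 milk protein genes tested, with 1 point per basal library (blue for control, red for E2; circles and squares are ACI libraries 1 and 2, triangles BN). *Csn2* lies between 5.07 and 17.7 CPM in controls and between 301 and 897 CPM with E2, *Mfge8* does not separate by treatment, and ACI E2 library 1 is at 0 for *Lpo*, *Slc34a2*, *Btn1a1* and *Mfsd2a*.

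The proximal promoters of 4 casein genes that separated E2 from control, those of the α- and β-caseins, are shown. *Csn3*, *Glycam1*, *Wap* and *Xdh* also separated the treatments, and their windows are not shown. The 4 shown are the casein windows that held a Stat5 match, and that of *Csn3* held none. Each window is the 250 bases before the annotated start, from RefSeq in the build GRCr8, in which the casein genes lie in 1 cluster. Capitals mark each match to the Stat5 consensus TTCNNNGAA, whose reverse complement is the same string of letters, so that 1 search covers both strands.
Csn2 (chr14:20601574-20601823, plus strand): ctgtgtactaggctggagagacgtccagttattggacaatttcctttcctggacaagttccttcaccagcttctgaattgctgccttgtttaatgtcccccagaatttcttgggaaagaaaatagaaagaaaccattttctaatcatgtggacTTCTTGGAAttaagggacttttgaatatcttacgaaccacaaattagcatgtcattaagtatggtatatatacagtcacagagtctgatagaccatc
Csn1s1 (chr14:20638850-20639099, minus strand): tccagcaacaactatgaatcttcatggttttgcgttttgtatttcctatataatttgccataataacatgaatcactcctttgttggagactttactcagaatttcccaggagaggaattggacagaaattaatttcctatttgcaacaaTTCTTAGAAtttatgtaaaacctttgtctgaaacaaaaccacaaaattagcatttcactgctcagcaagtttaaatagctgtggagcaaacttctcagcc
Csn1s2a (chr14:20574472-20574721, minus strand): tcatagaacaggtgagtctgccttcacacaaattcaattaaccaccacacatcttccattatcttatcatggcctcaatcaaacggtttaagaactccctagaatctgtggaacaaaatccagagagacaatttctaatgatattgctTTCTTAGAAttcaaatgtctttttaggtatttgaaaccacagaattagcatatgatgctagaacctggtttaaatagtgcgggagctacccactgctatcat
Csn1s2b (chr14:20545619-20545868, minus strand): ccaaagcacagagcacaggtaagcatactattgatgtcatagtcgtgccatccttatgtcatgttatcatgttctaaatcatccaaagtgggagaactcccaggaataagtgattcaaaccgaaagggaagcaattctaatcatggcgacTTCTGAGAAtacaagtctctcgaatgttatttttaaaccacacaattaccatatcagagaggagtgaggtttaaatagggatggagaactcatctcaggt

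Each of these 4 windows held 1 match, beginning 97, 100, 102 and 100 bases before the start in *Csn2*, *Csn1s1*, *Csn1s2a* and *Csn1s2b*. The matched letters were identical in *Csn1s1* and *Csn1s2a*. *Glycam1* held a match 175 bases before its start, and *Csn3*, *Wap*, *Lalba* and *Xdh* held none in this window. Of the 13 tested milk genes with a promoter in the table, 5 (38.5%) held a match, beside 2566 of 33469 promoters (7.67%). A match in these letters is a description of the window, and binding was not measured in these libraries.

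Milk genes were measured in the luminal library of the same title too. On the CPM scale normalized over 12 libraries, luminal *Csn2* was at 248.9, 827.6 and 40.9 CPM in controls and 4319, 51120 and 30460 CPM with E2. The basal level was 2.03%, 2.12% and 30.9% of the luminal level in controls and 6.91%, 1.74% and 1.17% with E2. *Csn1s1* in basal cells was at 3.12%, 1.15% and 2.29% of its luminal level in controls and 17.6%, 4.53% and 4.77% with E2. Its luminal level was 1035, 1273 and 312 CPM in controls and 673, 6321 and 15960 CPM with E2. The 17.6% thus went with a luminal value below both ACI controls. That luminal library had the fewest counts of the 12 (13659389) and the largest share of reads not counted on genes (74.67%). For comparison, the luminal keratin *Krt18* in basal libraries was at 4.57%, 0.75% and 1.1% of its luminal level in controls and at 0.0373%, 8.18% and 9.7% with E2. In ACI E2 library 1, *Krt18* was at 0.563 CPM and *Krt19*, another luminal keratin, at 0.216 CPM on the basal scale, the lowest of the 6 libraries for both, while *Csn2* was at 301 CPM there. In ACI control library 1, *Krt18* was at 207 CPM and *Csn2* at 5.07 CPM, the lowest of the 6. The summed luminal markers in basal libraries were 3434, 1133 and 595 CPM in controls and 417.5, 4499 and 4475 CPM with E2. They overlap through ACI E2 library 1 alone, the sums of the other E2 libraries lying above every control. Of the 19 luminal markers tested, 0 separated the treatments over all 6 libraries, beside 3.17% of all genes above and 7.52% below. Without ACI E2 library 1, both remaining E2 libraries lay above all controls for 6 of the 19 and below for 0, and the median log2 fold change of the luminal markers was 1.20 in place of 0.62. Luminal markers and milk genes were thus both higher in those E2 libraries. The part of luminal RNA in the milk genes was not tested.

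**Figure D3:**
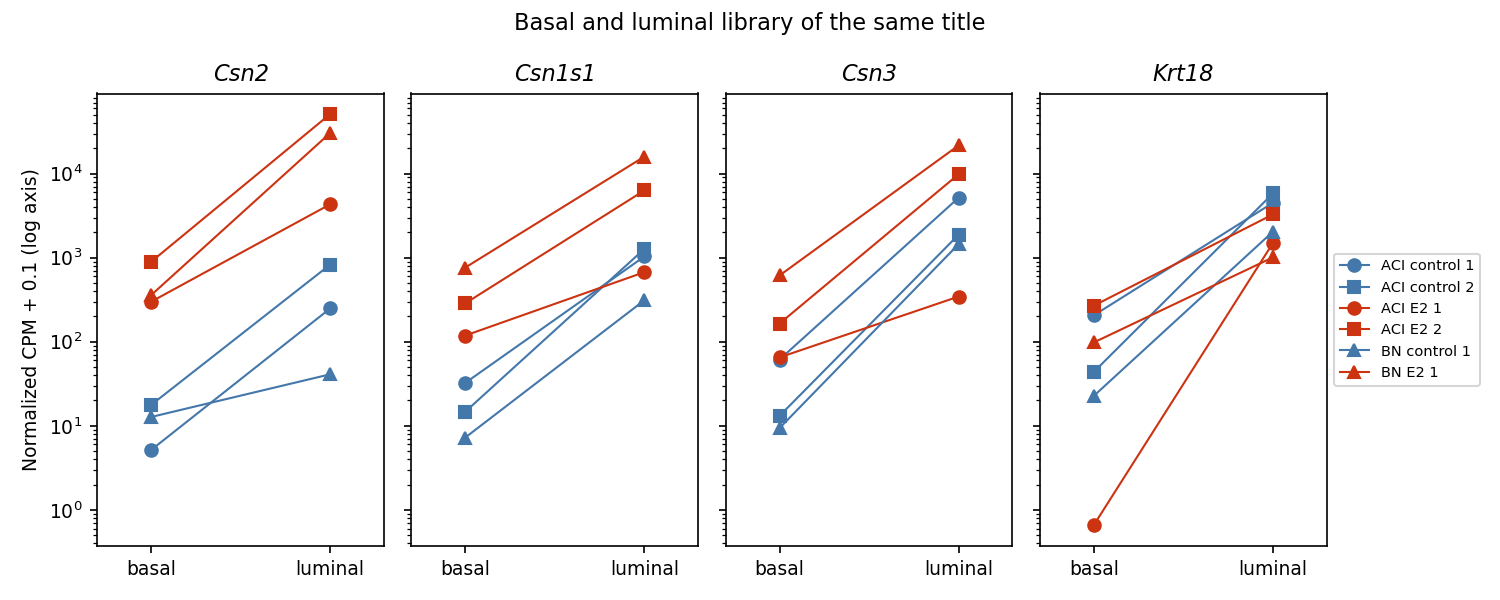
Normalized CPM plus 0.1 (log axis, scaled over 12 libraries) in the basal and the luminal library of the same title, joined by a line, for 3 casein genes and the luminal keratin *Krt18* (blue for control, red for E2; circles and squares are ACI libraries 1 and 2, triangles BN). Luminal *Csn2* lies between 4319 and 51120 CPM with E2 and between 40.9 and 827.6 CPM in controls. Basal *Krt18* is lowest in ACI E2 library 1 and highest in ACI E2 library 2.

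Beyond milk proteins, the genes with the lowest p among those that separated the treatments included secreted and metabolic genes. *Cpxm1*, a carboxypeptidase-like secreted protein, had 0, 0 and 0.0526 CPM in controls and 27.4, 9.00 and 203 CPM with E2. *Penk*, the enkephalin precursor, was at 5.56, 6.10 and 11.5 CPM in controls and 53.5, 29.8 and 294 CPM with E2, a log2 fold change of 3.43 (standard error 0.63, DESeq2 adjusted p = 0.000318). *Pi16*, a gene of fibroblasts, was at 0, 0 and 1.47 CPM in controls and 38.8, 2.32 and 169 CPM with E2. *Cpxm1*, *Penk* and *Pi16* were all highest in the BN E2 library, where the fibroblast markers were highest as well (*Dcn* at 5096 CPM against 18.4 to 516 CPM in the other 5). In ACI E2 library 2, the fibroblast markers had their lowest sum (1134 CPM), and *Cpxm1*, *Penk* and *Pi16* were still above every control. The part of fibroblast RNA in these values was not tested.

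The other 3 genes, like *Cpxm1*, *Penk* and *Pi16*, were higher than the controls in the ACI and the BN E2 libraries. *Olah*, the thioesterase that releases medium-chain fatty acids in the lactating gland, was at 44.5, 5.70 and 6.83 CPM in controls and 179, 169 and 79.2 CPM with E2 (log2 fold change 3.04, standard error 0.82). *Car2*, carbonic anhydrase II, was at 6.91, 14.9 and 7.78 CPM in controls and 101, 76.2 and 23.5 CPM with E2 (log2 fold change 2.56, standard error 0.69, DESeq2 adjusted p = 0.0275). *Sfrp2*, a secreted modulator of Wnt signalling, was at 14.2, 3.99 and 1.68 CPM in controls and 56.6, 60.2 and 85.7 CPM with E2 (log2 fold change 3.59, standard error 1.02). For *Sfrp2*, the E2 libraries were close to each other and the controls spread more widely. It too was highest in the BN E2 library. Among luminal libraries, it was highest in ACI E2 library 1 (72.8 CPM normalized over 12 libraries). The fibroblast markers had their highest luminal sum there as well (5964 CPM). The part of fibroblast RNA in *Sfrp2* was not tested.

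Among 29 genes of lipid synthesis and storage, 3 had all E2 libraries above and 3 all below, beside 3.17% and 7.52% of all genes, and the median log2 fold change of the list was -0.16, near that of all genes. These counts were 5 and 5 without ACI E2 library 1. *Plin2*, which coats lipid droplets, was at 156, 183 and 239.6 CPM in controls and 2422, 317 and 538 CPM with E2. Its log2 fold change of 2.42 (standard error 0.88) was 1.02 without ACI E2 library 1. *Thrsp*, a regulator of lipogenesis in the lactating gland, was at 10.1, 3.77 and 6.47 CPM in controls and 22.9, 83.8 and 36.0 CPM with E2 (log2 fold change 2.79, standard error 0.89). *Fabp3*, a fatty acid binding protein, was at 0.818, 6.05 and 17.2 CPM in controls and 50.9, 85.4 and 26.3 CPM with E2. Those below included *Hmgcs1*, the HMG-CoA synthase of cholesterol synthesis, and *Acly*, which makes cytosolic acetyl-CoA. *Hmgcs1* was at 467, 569 and 321 CPM in controls and 247, 311 and 164 CPM with E2 (log2 fold change -0.92, standard error 0.32).

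Genes of Schwann cells, the glia that ensheath peripheral nerves, were lower with E2. All 10 listed markers passed the filter and had a log2 fold change below 0, with a median of -2.88 beside -0.18 over all genes. All 3 E2 libraries lay below all 3 controls for 7 of the 10, beside 7.52% of all genes. By unadjusted edgeR p under 0.05, 6 were lower, beside 1.21% of all genes, and DESeq2 called 4 after adjustment, beside 0.478%. Without ACI E2 library 1, both remaining E2 libraries were below all controls for 8 of 10, beside 12.9% of all genes tested.

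*Mbp*, a structural protein of myelin that other cells express at lower levels, was at 422, 190.3 and 97.9 CPM in controls and 10.6, 45.3 and 16.8 CPM with E2, a log2 fold change of -3.15 (standard error 0.72, DESeq2 adjusted p = 0.016). *Ncam1*, a neural cell adhesion molecule, was at 155, 123 and 89.0 CPM in controls and 5.11, 28.5 and 10.4 CPM with E2 (log2 fold change -3.06, standard error 0.73, DESeq2 adjusted p = 0.0271). *Cdh19*, a cadherin of glial precursors, was at 325, 58.3 and 18.1 CPM in controls and 0, 6.25 and 0.0937 CPM with E2. *Cdh19* was close to absent in ACI E2 library 1 and the BN E2 library but not in ACI E2 library 2. *Pmp22*, a peripheral myelin protein also made outside nerve, differed least among the separated genes, with 999, 680.0 and 798 CPM in controls and 530.0, 228 and 248 CPM with E2 (log2 fold change -1.33, standard error 0.46). Within controls, *Mbp*, *Ncam1* and *Cdh19* were all highest in ACI library 1 and lowest in BN.

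The transcription factor *Sox10*, a defining gene of Schwann cells that mammary epithelium expresses as well, did not follow, with 137, 81.9 and 45.3 CPM in controls and 28.0, 122 and 98.2 CPM with E2. *Erbb3*, a neuregulin receptor of glia and of epithelium, overlapped too, with 120.2, 37.6 and 20.7 CPM in controls and 0.0433, 39.8 and 73.2 CPM with E2. *S100b*, a calcium-binding protein of glia, was at 232, 96.5 and 54.8 CPM in controls and 86.4, 42.0 and 4.50 CPM with E2, overlapping through the BN control and ACI E2 library 1. In luminal libraries, the 10 markers summed to 569.5, 770.9 and 461.3 CPM in controls and 836.8, 1128 and 562.5 CPM with E2, so the lower sums with E2 were those of the basal libraries.

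**Figure D4:**
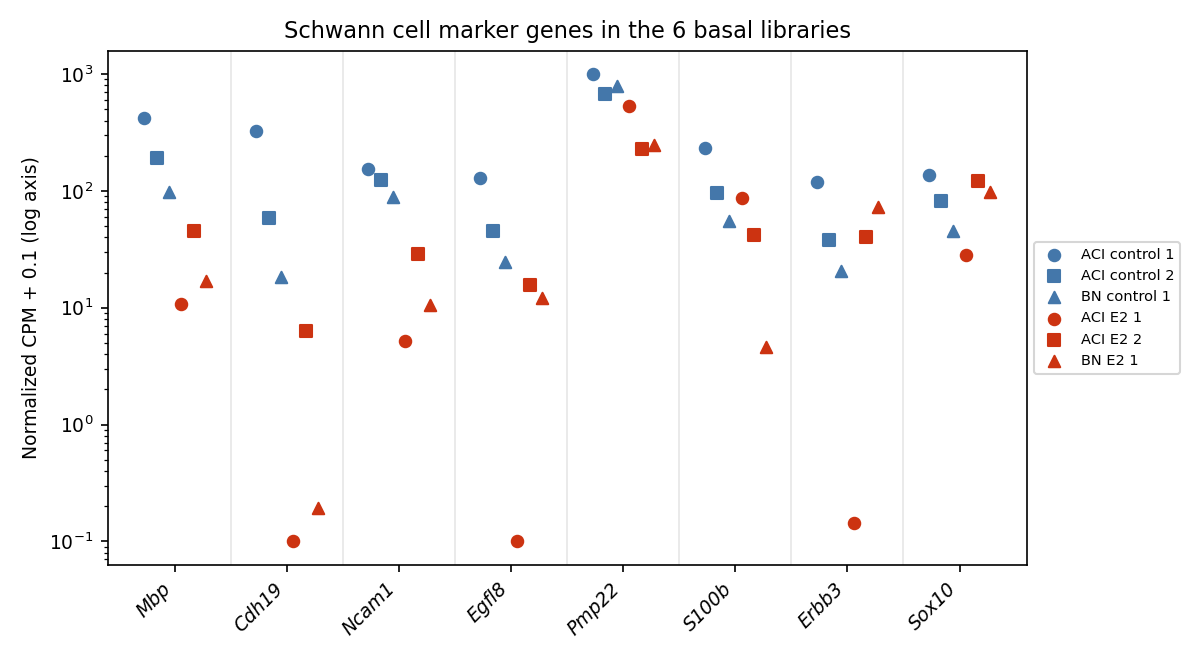
Normalized CPM plus 0.1 (log axis) of 8 Schwann cell marker genes, with 1 point per basal library (blue for control, red for E2; circles and squares are ACI libraries 1 and 2, triangles BN). The E2 libraries lie below the controls for 5 genes, and overlap them for *S100b*, *Erbb3* and *Sox10*.

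The genes with the lowest p that were lower with E2 included others known from nervous tissue. *Scn7a*, a sodium channel relative of glia and neurons, was at 1359, 401 and 184 CPM in controls and 17.0, 13.4 and 19.7 CPM with E2, a log2 fold change of -5.03 (standard error 0.89, DESeq2 adjusted p = 3.44e-06). Its E2 values were nearly equal in the 3 libraries. *Cadm2*, a synaptic cell adhesion molecule, was at 67.9, 14.1 and 3.84 CPM in controls and 0, 0 and 0.0469 CPM with E2. *Plxnb3*, a semaphorin receptor, was at 50.8, 21.7 and 18.8 CPM in controls and had no count in any E2 library, at least 230-fold lower with the floor of 3 counts per library.

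The other genes lower with E2 were of several kinds. *Stard13*, a gene of a GTPase-activating protein, was at 74.4, 81.9 and 92.8 CPM in controls and 5.24, 8.58 and 14.1 CPM with E2, a log2 fold change of -3.24 (standard error 0.56, DESeq2 adjusted p = 3.82e-05). *Nfatc1*, a calcineurin-dependent transcription factor, was at 178, 288 and 318 CPM in controls and 69.0, 66.7 and 75.0 CPM with E2 (log2 fold change -1.88, standard error 0.36, DESeq2 adjusted p = 0.00837). Both genes were close between libraries of one treatment, ACI and BN alike. *Zdhhc2*, a palmitoyltransferase, was at 119.7, 79.7 and 35.1 CPM in controls and 5.67, 12.6 and 0.609 CPM with E2 (log2 fold change -4.18, standard error 0.85). *Col11a1*, a fibrillar collagen chain, was at 106, 22.2 and 5.10 CPM in controls and 0, 0.127 and 0 CPM with E2. *Mst1r*, the receptor of macrophage-stimulating protein, was at 25.4, 15.4 and 16.7 CPM in controls and without a count in the E2 libraries, at least 145-fold lower.

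Immediate early genes, the transcription factors and regulators induced within minutes by growth factors or by tissue handling, had low E2 values as well. All 22 passed the filter, 21 had a log2 fold change below 0, and the median was -0.59. All 3 E2 libraries lay below the controls for 9 genes and above for 0, beside 7.52% and 3.17% of all genes, but 1 gene, *Nr4a2*, had an unadjusted edgeR p under 0.05. *Nr4a2*, an orphan nuclear receptor, was at 357, 639 and 599.9 CPM in controls and 313, 208 and 203 CPM with E2 (log2 fold change -1.14, standard error 0.41). *Fos*, a subunit of AP-1, was at 20069, 18091 and 23048 CPM in controls and 7096, 15998 and 8481 CPM with E2 (log2 fold change -0.96, standard error 0.61). *Klf6*, a zinc finger factor, was at 3801, 4459.6 and 3664 CPM in controls and 2222, 2576 and 1845 CPM with E2 (log2 fold change -0.85, standard error 0.39). *Jun*, the AP-1 partner of *Fos*, did not separate, with 5336, 5741 and 14166 CPM in controls and 4622, 8872 and 9467 CPM with E2. None of the 22 passed edgeR's or DESeq2's test after adjustment. Without ACI E2 library 1, both E2 libraries were below all controls for 11 of the 22, beside 12.9% of all genes. The lower values were not particular to basal libraries. On the CPM scale normalized over 12 libraries, the 22 genes summed to 161400, 114700 and 192000 in luminal controls. With E2 these luminal sums were 26130, 75600 and 82510. The median difference of the E2 effects, basal minus luminal, was 0.86, with 17 of the 22 genes above 0.

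Receptors and developmental pathways were read beside the 3.17% of all genes with all E2 libraries above and the 7.52% with all below, and held 0 to 3 separated genes per list in either direction. *Esr1*, the estrogen receptor α, was at 0.0409 to 5.20 CPM in controls and 0.173 to 5.95 CPM with E2, so basal libraries held little of its transcript in either treatment. *Pgr*, the progesterone receptor and an estrogen target, was at 0, 0.0877 and 0.526 CPM in controls and 0, 4.52 and 21.6 CPM with E2. Of 19 hormone receptors and mediators tested, 0 separated the treatments. In the Notch pathway, *Notch1* was at 73.4, 90.4 and 120.2 CPM in controls and 19.9, 25.9 and 2.95 CPM with E2 (log2 fold change -2.88, standard error 0.91), and of 19 genes of the pathway 2 had all E2 libraries below and 0 above. Among 11 integrins, *Itga1*, a collagen receptor subunit, was at 121, 284 and 148 CPM in controls and 80.2, 97.2 and 69.6 CPM with E2 (log2 fold change -1.16, standard error 0.43). In 31 Wnt pathway genes, 1 separated upward (*Sfrp2*) and 3 downward (*Lgr5*, *Nkd1* and *Nkd2*), in 31 genes of TGF-β and BMP signalling 0 upward and 2 downward, and in 24 of the basement membrane and matrix 0. When ACI E2 library 1 was left out, 1 hormone receptor or mediator had both E2 libraries above and 0 both below. The same counts above and below were 1 and 2 for the Notch pathway, 0 and 3 for integrins, 4 and 4 for the Wnt pathway, 4 and 7 for TGF-β and BMP signalling, and 1 and 4 for the basement membrane and matrix.

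The result for genes that define basal cells depended on which libraries were included. Of 22 basal identity genes, 13 had a log2 fold change above 0 (median 0.33), 0 separated upward and 3 (*Id4*, *Ngfr* and *Vim*) downward, beside 3.17% and 7.52% of all genes. When ACI E2 library 1, which held no count of *Tp63*, was left out, 6 had both E2 libraries above all controls and 4 both below, and the median was 0.91. The median turned to -0.44 without ACI E2 library 2, -0.29 without the BN control and -0.27 without the BN E2 library. The median was -0.28 in ACI alone and 1.63 in BN, where the control library was low in *Krt5* (148 CPM, against 1013 CPM with E2). Of 25 contractile genes, 7 were above 0, the median was -0.38, and 0 separated, with 1 above and 2 below without ACI E2 library 1.

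*Cdkn1b*, which encodes the cell cycle inhibitor p27 that the study is about, was at 34.6, 29.3 and 51.6 CPM in controls and 11.2, 30.3 and 12.4 CPM with E2. The groups overlapped through ACI E2 library 2, and the log2 fold change was -1.09 (standard error 0.78, edgeR adjusted p = 0.9998). Of 44 genes of G2 and M phase, 33 had a log2 fold change below 0 (median -0.66), with 4 separated downward and 0 upward. Of 34 genes of S phase, 20 were below 0 (median -0.10), with 4 separated upward and 3 downward. The shares over all genes were 3.17% upward and 7.52% downward. Of the genes of G2 and M phase, 0 had both E2 libraries above and 5 both below without ACI E2 library 1, and for S phase the counts were 6 and 3. *Mcm4*, a subunit of the replicative helicase, was at 45.6, 36.7 and 37.8 CPM in controls and 53.9, 73.3 and 109.7 CPM with E2, while *Pcna*, the sliding clamp, was at 454, 582 and 570.1 CPM and then 430.4, 420.4 and 299.6 CPM.

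In ACI rats alone, with 2 libraries per treatment, edgeR's test called 0 of 10643 genes (0%) after adjustment, and 97 (0.911%) had an unadjusted p under 0.05, 30 higher (0.282%) and 67 lower (0.63%). The direction of this split depended on the library left out. Higher genes outnumbered lower ones without either ACI control library, and lower genes outnumbered higher ones without either ACI E2 library. Each of these fits leaves 1 library in a group. DESeq2 called 32 after adjustment. The BN pair of libraries gives a ratio without a test. Of the 30 genes higher in ACI, the BN ratio was above 0 for 19 (63.3%), beside 42.6% of all genes. Of the 67 lower in ACI, it was below 0 for 59 (88.1%), beside 57.4% of all genes. Over all 10643 genes the signs agreed for 51.8%, with a Spearman correlation across genes of 0.0734 and a Pearson correlation of 0.138, genes not being independent replicates.

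By list, over the genes tested in both, the medians of ACI and BN were 2.47 and 4.59 for 12 milk proteins, -3.25 and -2.45 for Schwann cell markers and -0.39 and -0.95 for immediate early genes, on the log2 scale. *Csn2* had 5.71 in ACI and 4.81 in BN, *Csn1s1* 3.10 and 6.72, *Scn7a* -5.87 and -3.22, and *Nfatc1* -1.80 and -2.08. The pericyte markers ran apart, with a median of 0.53 in ACI and -10.07 in BN. The interaction of strain and treatment, whose residual spread rests on the ACI libraries, passed for 0 of 12265 genes (0%) by edgeR after adjustment, with 384 (3.13%) at an unadjusted p under 0.05, 26 higher (0.212%) and 358 lower (2.92%) in BN. This count was 188 without ACI control library 1 and 821 without ACI E2 library 1. Without ACI E2 library 2 it was 2601, and the direction turned, with 1917 higher and 684 lower in BN. DESeq2 called 329 after adjustment.

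**Figure D5:**
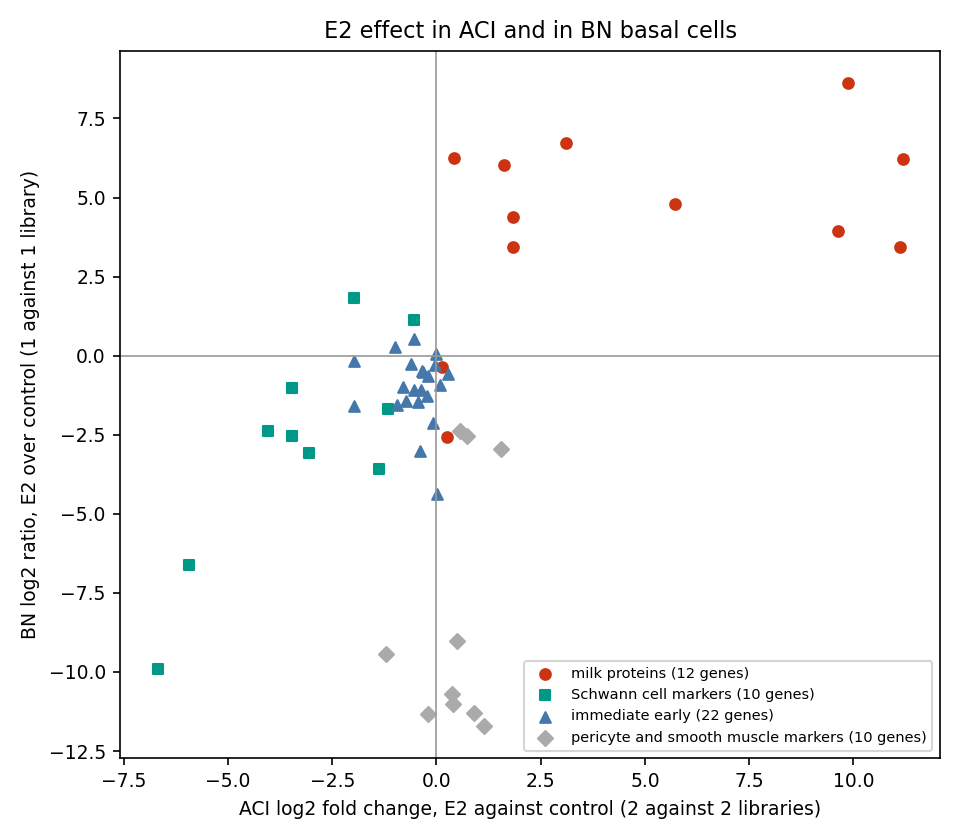
Log2 ratio of the BN pair (E2 over control, vertical axis) against the log2 fold change in ACI (2 against 2 libraries, horizontal axis), with 1 point per gene of 4 lists. Of the 12 milk protein genes tested in ACI, 10 lie above 0 on both axes, 8 of 10 Schwann cell markers and 16 of 22 immediate early genes lie below 0 on both, and pericyte markers lie below 0 in BN.

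Whether the response of basal cells differed from that of luminal cells was tested over all 12 libraries with the title as a block. By edgeR's test, 0 of 12405 genes (0%) passed after adjustment, 237 (1.91%) had an unadjusted p under 0.05, 117 higher (0.943%) and 120 lower (0.967%) in basal cells, and DESeq2 called 112 after adjustment. *Csn2* differed by -0.94 (standard error 1.32, basal minus luminal log2 effect) and *Csn1s1* by 1.82 (standard error 0.73). The Schwann cell markers as a list had a median difference of -2.34. *Mbp* differed by -3.42 (standard error 0.80), its E2 level being below that of controls in basal libraries, while luminal libraries held 140.8 to 211.6 CPM in controls and 157.7 to 212.2 CPM with E2. *Cat*, encoding catalase, was the converse case among the genes with the lowest p, with 112.9 to 170.8 CPM in basal controls, 110.8 to 149.2 CPM in basal E2 libraries, 66.3 to 128.9 CPM in luminal controls and 268 to 304 CPM in luminal E2 libraries. Its difference was -1.82 (standard error 0.47), with luminal libraries separated by treatment and basal libraries overlapping. *Cst3*, the protease inhibitor cystatin C, differed by -2.45 (standard error 0.56), with luminal levels of 87.6, 123 and 360.1 CPM in controls and 824, 618 and 261 CPM with E2 beside basal levels of 722, 1069 and 1549.8 CPM in controls and 1543, 831 and 193 CPM with E2. The BN E2 library was the lowest of the E2 libraries in either cell type. The other genes of lowest p were *Cpxm1*, *Gsc*, *Dse*, *Odam* and *Ptgir*, with E2 effects higher in basal cells, and *Prex1* and *RGD1559896*, with lower ones, at standard errors of 0.52 to 1.78 on the log2 scale. *Dse* and *Ptgir* had no count in any luminal E2 library and overlapped between treatments in basal libraries. Basal *Dse* was at 7.20, 43.5 and 43.4 CPM in controls and 104.7, 9.90 and 49.3 CPM with E2. Basal *Ptgir* was at 12.2, 47.2 and 63.3 CPM in controls and 96.8, 21.5 and 0 CPM with E2.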

How the data were processed

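RNA-seq of sorted mammary cells was analysed from 12 libraries of the E2 experiment, with 2 libraries per treatment in ACI and 1 in BN for each cell type. Per the study's methods and the labels, the authors made SMARTer v4 libraries from less than 10 ng of RNA, aligned single-end reads to rn6 with STAR 2.5.1b and counted them on refGene genes with HTSeq. The values deposited by the authors are raw counts. Reads tallied without a gene (56.78% to 74.67% per library) were left out. Low counts were removed with filterByExpr, TMM factors applied, and groups compared with the quasi-likelihood test of edgeR 4.0.16 in R 4.3.3, calling genes at a Benjamini-Hochberg adjusted p under 0.05. DESeq2 1.42.0 and limma 3.58.1 (voom with quality weights) were alternatives. CPM are normalized by TMM. Level ratios against a group at 0 used a floor of 3 counts per library, which covers counting error only. The tests were tried on simulated data.

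Genes named are members of 27 lists, *Cdkn1b*, and in each direction the 10 genes with the lowest p among those with a mean log2 CPM above 2 and non-overlapping treatments (5 for basal minus luminal). The libraries and lists were chosen with earlier results of these data known. Listed genes without a row in the tables were not analysed here, and a few measured genes are left unreported here. The labels do not say that the numbers in titles name separate rats, so p-values measure only the spread between these libraries, which may be technical. The 2 ACI libraries of a treatment were checked and were not duplicates. Promoters came from RefSeq (GRCr8).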

Additional observations from a re-analysis of the deposited data

How the results depend on the processing

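The count of genes past an adjusted p of 0.05 was 0 for all 4 comparisons under RLE size factors, with every counted gene kept, with a minimum of 10 counts per library, by voom with quality weights and with an added log2 fold change above 1. It was also 0 without a strain term, with all 12 libraries in 1 fit, and without any 1 library or pair of libraries (range 0 to 0 for each comparison). DESeq2 called 74 genes for E2 against control in basal cells, 32 in ACI alone, 329 for BN minus ACI and 112 for basal minus luminal, the cause of which was not tested. At an unadjusted p under 0.05, the 181 genes (44 higher, 137 lower) became 52 without ACI control library 2, 399 without ACI E2 library 1, 541 without ACI E2 library 2, 87 without the BN control, 89 without the BN E2 library and 566 by voom. They split into 113 higher and 111 lower with a minimum of 10 counts per library and into 69 and 80 without ACI control library 1. In ACI alone, the split of the 97 (30 higher, 67 lower) turned without either ACI control library. Without either ACI E2 library, lower genes still outnumbered higher ones. In these fits the lone library of a group is assumed to vary like the other group. With at least 10 counts per library, the genes at an unadjusted p under 0.05 in ACI alone were 59 higher and 54 lower. For BN minus ACI, the 384 (26 higher, 358 lower) became 188 without ACI control library 1, 821 without ACI E2 library 1, and 2601 (1917 higher, 684 lower) without ACI E2 library 2. For basal minus luminal, the 237 became 95 without the pair of ACI control library 2, 376 without that of ACI E2 library 1, 409 without that of ACI E2 library 2 and 866 by voom. For the 37 genes whose folds were recomputed under 10 alternatives, 0 changed sign, and 20 of 370 values passed an adjusted p that they had missed, under DESeq2. Medians of milk proteins (2.47 to 6.54), Schwann cell markers (-4.04 to -2.23) and immediate early genes (-0.93 to -0.37) kept their sign under 9 alternatives, whereas that of basal identity genes ran from -0.44 to 0.99 and that of luminal markers from -1.10 to 1.66.

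No paired analysis was possible because treated and control rats share no number in the labels. For basal minus luminal, the fit with no replicate block (a term for each cell type and strain in place of the title) called 0 genes, with 324 at an unadjusted p under 0.05 against 237. Counts per basal library were similar, and genes at a few counts are limited by depth.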

Other observations

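The lists not described above are read beside the 3.17% of all genes with all E2 libraries above the controls and the 7.52% with all below. Among 14 tested targets and partners of prolactin and Stat5 signalling, 8 had a log2 fold change above 0 (median 0.10) and *Socs2*, a feedback inhibitor of the pathway, was the 1 gene with all E2 libraries above. *Cish*, another such inhibitor, overlapped between treatments, with 129 and 46.8 CPM in the ACI controls, 84.0 CPM in the BN control, 96.1 and 451 CPM in the ACI E2 libraries and 176 CPM in the BN E2 library. Of 17 heat shock genes, 12 were above 0 (median 0.10) and 0 separated. Of 25 interferon-stimulated genes, 13 were above 0 (median 0.04) and 1 separated upward, and of 13 EGF family genes 7 were above 0 (median 0.10) and 1 separated downward. Of 17 CDK inhibitors and G1 cyclins, 7 were above 0 (median -0.24) and 1, *Cdkn2c*, separated downward. Without ACI E2 library 1, both E2 libraries lay above all controls for 5 heat shock genes and below for 1, beside 11.3% and 12.9% of all genes. The same counts were 2 and 2 for prolactin and Stat5 signalling, 3 and 2 for interferon-stimulated genes, and 0 and 1 for the EGF family and for CDK inhibitors and G1 cyclins.

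Among markers of other cells, 12 endothelial genes had 1 separated upward and 1 downward, 9 myeloid genes 0 upward and 1 downward, and 9 adipocyte genes 0 in either direction. Of 11 fibroblast genes 2 separated upward and 0 downward, and of 10 pericyte genes 0 upward and 1 downward. Lymphoid and erythroid markers were low in 5 of the 6 basal libraries, with sums of at most 3.08 and 1.44 CPM, and reached 41.0 and 2.05 CPM in the BN control. Over the 16 luminal markers tested in both strains, the medians were -0.07 in ACI and 2.07 in BN.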
